A study of Mus musculus with 40 samples.

Results

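The genes described here code for the initiation and elongation factors of cytosolic translation, with the kinases, binding proteins and methyltransferases that share their names. They were taken as every protein-coding mouse gene whose symbol starts with Eif1 to Eif6, Eef1 or Eef2 and that had at least 10 counts in at least 5 of the 40 libraries. Of the 67 genes with such a symbol, 63 passed, out of 41388 genes in the files. The other 4, Eef1akmt3, Eif4e1b, Eif4ebp3 and Eif3j2, had no library with 10 counts, and their highest counts were 8, 1, 5 and 7. No level or difference between groups was used in the choice beyond that minimum.

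RNA was sequenced from 2 lines of mice at 21 d, each with 5 pools of forebrains from both sexes. Mice of the RBP4 line carried Tg(RBP4-cre)KL100Gsat/Mmcd, a transgene that drives Cre in layer 5 pyramidal neurons, and mice of the VGAT line carried Cre at Slc32a1, the gene of the vesicular GABA transporter, which is active in any GABAergic neuron. Both lines also carried a Cre-dependent reporter of the ribosomal protein L10a fused to EGFP, so that ribosomes of the Cre-expressing neurons could be captured with antibodies to GFP. The labels give the tissue as cortex, and the dissection may have held dorsal striatum. Each pool gave 4 libraries: a whole-cell homogenate (WCH), the RNA on tagged ribosomes captured from it (TRAP, translating ribosome affinity purification), a synaptoneurosomal fraction (SNF, resealed synaptic and perisynaptic membranes) and the RNA on tagged ribosomes captured from the SNF (ST, SynapTRAP). All mice carried the reporter and a Cre, and neither untagged mice nor a mock capture was analysed here. Replicates 1 to 5 are these pools, so p-values measure the spread between pools.

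In eukaryotes, a 43S complex of the small ribosomal subunit, eIF3, eIF1, eIF1A, eIF5 and the eIF2 complex that brings the initiator tRNA is recruited to the mRNA cap by eIF4F, made of the cap-binding eIF4E, the helicase eIF4A and the scaffold eIF4G, and scans for a start codon. Initiation is held back by the eIF4E-binding proteins (4E-BPs, released by mTORC1) and by the eIF2alpha kinases, while eIF2B recharges eIF2 with GTP. In elongation eEF1A delivers tRNAs, the eEF1B complex recharges it, eEF2 moves the ribosome on, and eEF2 kinase stops eEF2 by phosphorylation; in neurons these controls act in dendrites and in synaptic plasticity.

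The libraries held 14259535 to 22037703 counts, with a median of 17143957. Levels are in cpm (counts scaled to library size) after 390 mitochondrial, rRNA and tRNA genes were left out, and 1 count was worth 0.0455 to 0.112 cpm. The layer 5 markers summed to 665 to 1034 cpm in the RBP4 TRAP libraries and 183 to 337 in the VGAT TRAP libraries. The GABAergic markers summed to 3016 to 5193 in VGAT TRAP and 92.2 to 436 in RBP4 TRAP. By these sums the TRAP libraries carried the RNA their labels give. Of single markers, all 4 GABAergic ones were lower in RBP4 TRAP than in VGAT TRAP, and 3 of the 4 layer 5 ones were higher. The other layer 5 marker, Bcl11b, was lower, at 54.9 to 83.4 cpm in RBP4 TRAP and 117 to 149 in VGAT TRAP (log2 fold change -1.08). In the ST libraries the GABAergic markers were not set apart by line, at 204 to 329 cpm in RBP4 and 256 to 705 in VGAT, and the layer 5 markers overlapped, at 653 to 1202 and 542 to 850 cpm. The oligodendrocyte markers summed to 27360 to 37404 cpm in RBP4 ST and 24513 to 42633 in VGAT ST, against 341 to 4702 and 374 to 2162 in TRAP. All 18 astrocyte, oligodendrocyte, microglial and endothelial markers were higher in ST than in TRAP in each line, and none was at 0 in a library. RBP4 TRAP replicate 5 had the most oligodendrocyte and astrocyte markers of the RBP4 TRAP libraries (4702 and 1565 cpm, against up to 830.1 and 656 in the other 4), and VGAT TRAP replicate 3 of the VGAT ones (2162 and 966 cpm). In bulk libraries such as these, fewer cells of a type and less RNA per cell cannot be told apart.

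Together the 63 genes made up less of the SNF libraries than of the WCH and TRAP libraries. Their summed share of the counts was 0.514% to 0.652% in RBP4 SNF and 0.514% to 0.609% in VGAT SNF, below every WCH library (0.701% to 0.812%) and every TRAP library (0.789% to 0.880%). The ST libraries spanned 0.607% to 0.848% in RBP4 and 0.719% to 0.806% in VGAT, and overlapped those of WCH in both lines and of SNF in RBP4. Per length, the highest mean level over all libraries was that of Eef1a1 at 278 RPKM (reads per kilobase of gene, scaled to the library), followed by Eif3k at 237 and Eef2 at 227, and the lowest were Eif2s3x at 1.16 and Eif2ak2 at 1.31. The study states that its libraries were primed at the 3′ end and that reads were strongly biased to it. Scaling by gene length may therefore misplace short and long genes in this ranking. Reads that also match a copy elsewhere were not counted, so the levels of genes with processed pseudogenes, Eef1a1 among them, are uncertain. Exons of 7 of the genes overlapped those of another gene over more than 10% of their length, among them Eif3d (32.7%), Eif5b (15.9%) and Eif4a2 (13.2%), and the kit did not keep strand.

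**Figure D1:**
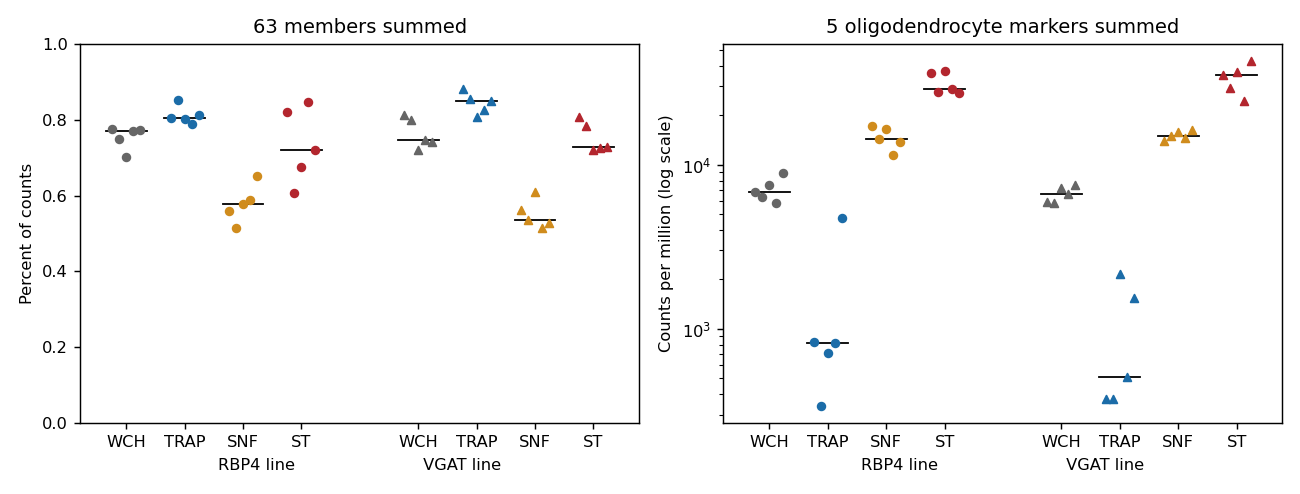
Summed level of the 63 factors (percent of counts, left panel) and summed oligodendrocyte markers (cpm, log axis, right panel) in each of the 40 libraries, by line and fraction. Points are libraries and lines group medians. The factors were at 0.514% to 0.652% in the SNF libraries, and the oligodendrocyte markers at 24513 to 42633 cpm in the ST libraries.

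TRAP against WCH compares the RNA on tagged ribosomes with that of the whole tissue. In both lines Eif1 and Eif1b of start-codon selection, the eIF1A relative Eif1ad and Eif5a were higher in TRAP, and Eif2ak2, Eif4ebp2, Eif4enif1 and Eif3a were lower. In RBP4, 8 of the 63 genes rose and 6 fell past the threshold (adjusted p up to 0.05), where 8.37% of all tested genes were higher and 31.5% lower. In VGAT, 22 were higher and 12 lower, where the shares of all genes were 21.0% and 41.8%. The median log2 fold change of the 63 genes was 0.10 in RBP4 and 0.14 in VGAT, and that of all tested genes -0.34 and -0.31. With TMM scaling, which moved the median of all genes to -0.05 in RBP4, the RBP4 counts became 26 higher and 2 lower. Of all 17043 tested genes, 3296 were then higher and 3815 lower, so the split depends on the scaling.

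Eif5a, the hypusine-bearing factor that helps ribosomes through difficult peptide bonds, was at 89.8, 97.4, 93.7, 123 and 113 cpm in RBP4 WCH replicates 1 to 5. In RBP4 TRAP it was at 204, 239, 230.2, 276 and 169 cpm. All 5 TRAP libraries lay above all 5 of WCH, as for 5 of the 63 genes and 6.42% of all genes (6 and 23.8% in the other direction), and the log2 fold change was 1.11 ± 0.17 (SE, adjusted p = 3.20e-05), and 0.72 ± 0.18 (SE, adjusted p = 0.00164) in VGAT. Of the 8 genes grouped as 43S and start-codon factors, 3 were higher in RBP4 and 4 in VGAT, where Eif1ax was lower, by 0.28 (adjusted p = 0.0468, and 0.844 with TMM scaling). The group held Eif1, Eif1a, Eif1ad, Eif1ax, Eif1b, Eif5, Eif5b and Eif6, and the eIF2 and eIF3 genes were grouped apart. Eif1, which keeps the scanning complex open until a start codon is met, rose by 0.73 ± 0.15 and 1.0 ± 0.14 on the log2 scale (adjusted p = 0.000807 and 2.96e-06). Its paralog Eif1b rose by 0.58 and 0.94 (adjusted p = 0.0202 and 1.44e-05). Of the 13 eIF3 subunits, Eif3g rose in both lines, with log2 fold changes of 0.92 ± 0.20 (SE, adjusted p = 0.00113) in RBP4 and 1.07 ± 0.13 (SE, adjusted p = 7.36e-07) in VGAT. Eif3a, a core subunit of eIF3, fell in both lines, by 0.57 and 0.73. In VGAT 7 of the 13 eIF3 subunits rose and Eif3a fell.

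Eif2ak2 codes for PKR, the eIF2alpha kinase that responds to double-stranded RNA. In RBP4 WCH it was at 5.26, 4.92, 6.44, 5.37 and 7.22 cpm and in TRAP at 1.31, 0.347, 1.71, 0.956 and 3.75 cpm. The TRAP libraries were all below those of WCH, and the highest of them was replicate 5, the TRAP library with the most oligodendrocyte markers. The log2 fold change was -1.86 ± 0.39 (SE, adjusted p = 0.000739), and without that pool -2.35 (adjusted p = 2.31e-05). In VGAT it was -1.94 ± 0.41 (SE, adjusted p = 0.000376) with all pools and -2.64 (adjusted p = 1.23e-07) without replicate 3, whose TRAP library held the highest level (0.319 to 3.25 cpm over the 5). Eif4ebp2, the main 4E-BP of the brain, fell by 1.31 in RBP4 and by 0.68 in VGAT (adjusted p = 0.00151 and 0.018). Eif4enif1, the eIF4E transporter of P bodies, fell by 0.60 and 0.95 (adjusted p = 0.0139 and 5.84e-05). In VGAT, Eef2k and Eif4ebp1 fell as well, by 1.29 and 1.48, and Eef1e1, a part of the multisynthetase complex with an eEF1B-like fold, rose by 1.31 ± 0.15 (adjusted p = 2.60e-07). Eif2b4, the delta subunit of eIF2B, rose by 0.92 in VGAT and 0.60 in RBP4 (adjusted p = 2.24e-06 and 0.0175).

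SNF against WCH asks which RNAs are held by the synaptoneurosomal fraction. Most of the factors were lower there: 36 of 63 in RBP4 and 48 in VGAT, with 2 and 3 higher. Of all tested genes, 36.1% were lower in RBP4 and 45.2% in VGAT, and 13.4% and 19.3% were higher. The medians of the 63 genes, -0.53 and -0.61, lay near those of all genes, -0.50 and -0.52, so the fall of most factors was about that of the middle gene. With TMM scaling, which moved the medians of all genes to -0.17 in both lines, the counts became 5 higher and 11 lower in RBP4, and 9 and 27 in VGAT. Of all tested genes, 3284 of 17043 were then higher and 3048 lower in RBP4, and 4187 and 4747 of 16990 in VGAT. Under the size factors of DESeq2 the VGAT falls of Eif3h, Eif3l, Eif3m, Eif3e, Eif2b5 and Eif2ak1 changed sign.

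The 3 cap-binding proteins fell by more than the middle gene in both lines. Eif4e was at 152, 193, 148, 144 and 133 cpm in RBP4 WCH. In RBP4 SNF it was at 76.4, 79.5, 73.8, 75.7 and 83.8 cpm. No SNF library reached a WCH library, which held for 20 of the 63 genes in RBP4 and 39 in VGAT (27.1% and 36.9% of all genes), and Eif4e fell by 0.98 in RBP4 and 1.0 in VGAT (adjusted p = 0.000285 and 1.33e-05). Its relatives Eif4e2 and Eif4e3 fell by 0.92 and 0.99 in RBP4, and by 0.99 and 0.93 in VGAT. Eif4a2, an eIF4A helicase abundant in brain, fell by 1.13 and 1.18 (adjusted p = 0.000422 and 3.26e-06). Eif4enif1 fell by 1.23 and 1.33, and Eif1a by 1.20 and 1.41. Of the 5 eIF2B subunits 4 fell in RBP4 and 5 in VGAT, and of the 6 genes of eIF2 subunits with Eif2a and Eif2d 5 and 6 fell, Eif2d by 1.03 and Eif2a by 0.93 in RBP4.

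Eif2ak3 codes for PERK, the eIF2alpha kinase in the membrane of the endoplasmic reticulum, and it was higher in the SNF of both lines. In RBP4 WCH it was at 22.98, 17.4, 26.1, 20.8 and 23.6 cpm. In RBP4 SNF it was at 45.7, 50.9, 31.4, 35.2 and 41.3 cpm. Every SNF library was above every WCH library, and the log2 fold change was 0.88 ± 0.21 (SE, adjusted p = 0.00171) in RBP4 and 0.87 ± 0.15 (SE, adjusted p = 2.59e-05) in VGAT. The other calls upwards were Eif4ebp2 in RBP4, at 0.82 ± 0.29 (SE, adjusted p = 0.0234), and Eef1b2 and Eif2ak2 in VGAT, at 0.38 and 0.91 (adjusted p = 0.00578 and 0.0378). Replicate 3 held the highest SNF level of Eif4ebp2 in each line, 36.1 and 32.1 cpm where the other 4 reached 18.3 and 16.9, and that pool also had the most astrocyte markers among SNF libraries (23513 and 23328 cpm). Its SNF libraries also had the highest mitochondrial share of counts, 40.2% in RBP4 and 41.9% in VGAT, where the others reached 18.8% and 19.4%. The VGAT call of Eif2ak2 rested on the same pool, with replicate 3 at 18.9 cpm and the others at 5.07 to 7.91, and without it the log2 fold change was 0.46 (adjusted p = 0.0741). Without each RBP4 pool in turn, the adjusted p of Eif4ebp2 ran over 0.0192 to 0.0803. The elongation factors Eef1a1 and Eef2 were not called between SNF and WCH in either line, with log2 fold changes of 0.00 and 0.56 in RBP4 and 0.03 and 0.09 in VGAT. Without RBP4 replicate 5, Eef2 was called in RBP4, at 0.79 (adjusted p = 0.00642). With TMM scaling Eef2 was called in both lines, at 0.90 and 0.45 (adjusted p = 0.00871 and 0.0346), and Eef1a1 in VGAT, at 0.39 (adjusted p = 0.0354).

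ST against SNF compares RNA on the captured ribosomes of the fraction with all RNA of that fraction. In VGAT, 12 of the 13 eIF3 subunits and Eef2 were higher in ST, and in RBP4 fewer genes passed. In RBP4 5 of the 63 genes were higher (Eif3f, Eif4b, Eif4h, Eef2 and Eif3h) and Eif2ak3 was lower, where 5.64% of all tested genes were higher and 5.46% lower. With the pool that the ST and SNF libraries share as a block, 9 were higher and 1 lower in RBP4, where 1272 of 17043 genes were higher and 1452 lower. In VGAT 23 were higher and 4 lower, where the shares of all genes were 16.3% and 11.2%. The medians of the 63 genes were 0.19 and 0.27, against -0.05 and 0.08 over all genes. Without RBP4 ST replicate 4, in which the VGAT gene Slc32a1 was at 49.9 cpm, 2 genes were higher and 0 lower in RBP4. The GABAergic markers together summed to 329 cpm in that library and to 204 to 322 in the other RBP4 ST libraries. When no genes were left out of the library sizes 14 were higher in RBP4, as were 1757 of 16855 genes. The oligodendrocyte markers were at 11410 to 17221 cpm in RBP4 SNF and 13857 to 16204 in VGAT SNF, below every ST library (27360 to 37404 and 24513 to 42633), and their part in these results was not tested.

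Of the 13 eIF3 subunits, which bridge the 43S complex and eIF4G, 12 were higher in VGAT ST than in VGAT SNF and 2 in RBP4 (Eif3f and Eif3h). The median of the 13 was 0.59 in VGAT and 0.46 in RBP4, and Eif3e, the exception in VGAT, was at 0.38 ± 0.15 (SE, adjusted p = 0.0603). Eif3f (chr7:108934417-108942951, plus strand) had the highest fold change of the 63 in each line. In VGAT SNF it was at 88.4, 88.8, 115, 74.3 and 83.5 cpm. In VGAT ST it was at 261, 292, 323, 203 and 165 cpm, and the groups did not overlap. The log2 fold change was 1.47 ± 0.18 (SE, adjusted p = 1.78e-06) in VGAT and 1.17 ± 0.27 (SE, adjusted p = 0.00552) in RBP4, where SNF was at 73.04 to 127 cpm and ST at 108 to 328 cpm, with overlap. In RBP4 none of the 63 genes had groups without overlap, where 3.55% of all genes lay wholly above SNF and 3.09% wholly below, and in VGAT 15 lay wholly above (8.99% of all genes) and 2 wholly below (6.38%).

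Eef2 (chr10:81176631-81182507, plus strand), the translocase, was at 553, 608, 621, 414 and 531 cpm in VGAT SNF. The VGAT ST libraries held 1593, 1304, 951, 824 and 1444 cpm. Every ST library was above every SNF library, with a log2 fold change of 1.17 ± 0.17 (SE, adjusted p = 1.87e-05). In RBP4 SNF it was at 729, 622, 583, 719 and 708 cpm and in ST at 1631, 1134, 814, 1842 and 719 cpm. Replicates 1, 2, 3 and 4 of ST were above all SNF libraries and replicate 5 was within them, the log2 fold change was 0.87 ± 0.27 (SE, adjusted p = 0.0358), and without ST replicate 4 it was 0.68 (adjusted p = 0.121). Eef1a1 rose in VGAT by 0.70 ± 0.14 (adjusted p = 0.000677), and in RBP4 its log2 fold change of 0.39 did not pass (adjusted p = 0.222). Eif4h and Eif4b, which stimulate the eIF4A helicase, rose in both lines, by 0.76 and 0.76 in RBP4 and by 0.86 and 0.63 in VGAT. On the lower side, Eif2ak3 fell by 0.73 in RBP4 and 0.78 in VGAT (adjusted p = 0.0239 and 0.000316). In VGAT Eif2ak1, Eif4e and Eif1a also fell, by 0.36, 0.49 and 0.45 (adjusted p = 0.0234, 0.0241 and 0.00941).

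Messages for elongation factors and several eIF3 subunits are known for a pyrimidine tract at the 5′ end, through which mTORC1 controls them. The windows below run from 10 bases before to 20 bases after the annotated RefSeq start (GRCm38.p6), on the strand of the gene, for 6 genes that rose from SNF to ST in VGAT, and for 3 that fell from TRAP to ST in both lines. They were chosen after the values and the runs were seen, to show windows with and without a long run in each set. Capitals mark the longest run of C and T.
Eif3f, chr7:108934405-108934434, plus strand: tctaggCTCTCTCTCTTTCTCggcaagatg
Eef1a1, chr9:78481705-78481734, minus strand: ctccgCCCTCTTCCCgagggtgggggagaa
Eef2, chr10:81176621-81176650, plus strand: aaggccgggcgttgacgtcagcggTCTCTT
Eif3l, chr15:79075213-79075242, plus strand: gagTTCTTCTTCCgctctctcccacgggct
Eif4b, chr15:102073763-102073792, plus strand: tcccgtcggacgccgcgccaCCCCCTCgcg
Eif3a, chr19:60790674-60790703, minus strand: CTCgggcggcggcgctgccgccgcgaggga
Eif4a2, chr16:23107458-23107487, plus strand: gaaaCCCCgtaggagcagggcggccgagga
Eif1b, chr9:120492596-120492625, plus strand: gcgcggggCTaaatacgcggcgccggccat
Eef1e1, chr13:38659009-38659038, minus strand: gtcctagctgtgcaggccccgCCTCCCTag

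The table of starts held 51 of the 63 genes. A gene was counted when any of its windows held a run of at least 6 C or T on the strand of the gene. This was so for 17 of the 51 genes (33.3%) and for 32.1% of all 27025 genes in the table. The run was thus about as frequent among the factors as among genes in general. Among genes in the table of starts, the run was found for 8 of the 19 that rose from SNF to ST in VGAT. It was found for 6 of 25 and 8 of 30 of those that fell from TRAP to ST in RBP4 and VGAT. The median log2 fold change of ST against TRAP was -0.08 in RBP4 and -0.20 in VGAT for the 17 genes with the run, and -0.48 and -0.48 for the 34 without it. These medians are a description, and a run within such a window is not evidence that the start is used in these cells.

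ST against TRAP sets the captured ribosomes of the synaptoneurosomal fraction against those of the whole cell. Most of the 8 genes grouped as 43S and start-codon factors and of the 3 cap-binding genes were lower in ST in both lines. Eef2, Eef1a1, Eef1d, Eef1g, Eif3a and Eif3f were higher. Of the genes of the 43S complex that were grouped apart, 2 of 13 eIF3 subunits were lower in RBP4 and 5 in VGAT. Of the 6 genes of eIF2 subunits with Eif2a and Eif2d, 3 were lower in each line. In RBP4 9 of the 63 genes were higher and 30 lower, where 26.0% of all tested genes were higher and 29.1% lower. In VGAT 11 were higher and 35 lower, where 37.5% were higher and 34.0% lower. The medians of the 63 genes were -0.39 in RBP4 and -0.35 in VGAT, those of all genes -0.07 and 0.08, and those of the ribosomal protein genes -0.21 and -0.05. The ST libraries also had the oligodendrocyte, astrocyte, microglial and endothelial markers above TRAP, and their part in these results was not tested. Without RBP4 replicate 5 the counts were 8 higher and 28 lower, and without VGAT replicate 3 they were 11 and 34.

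**Figure D2:**
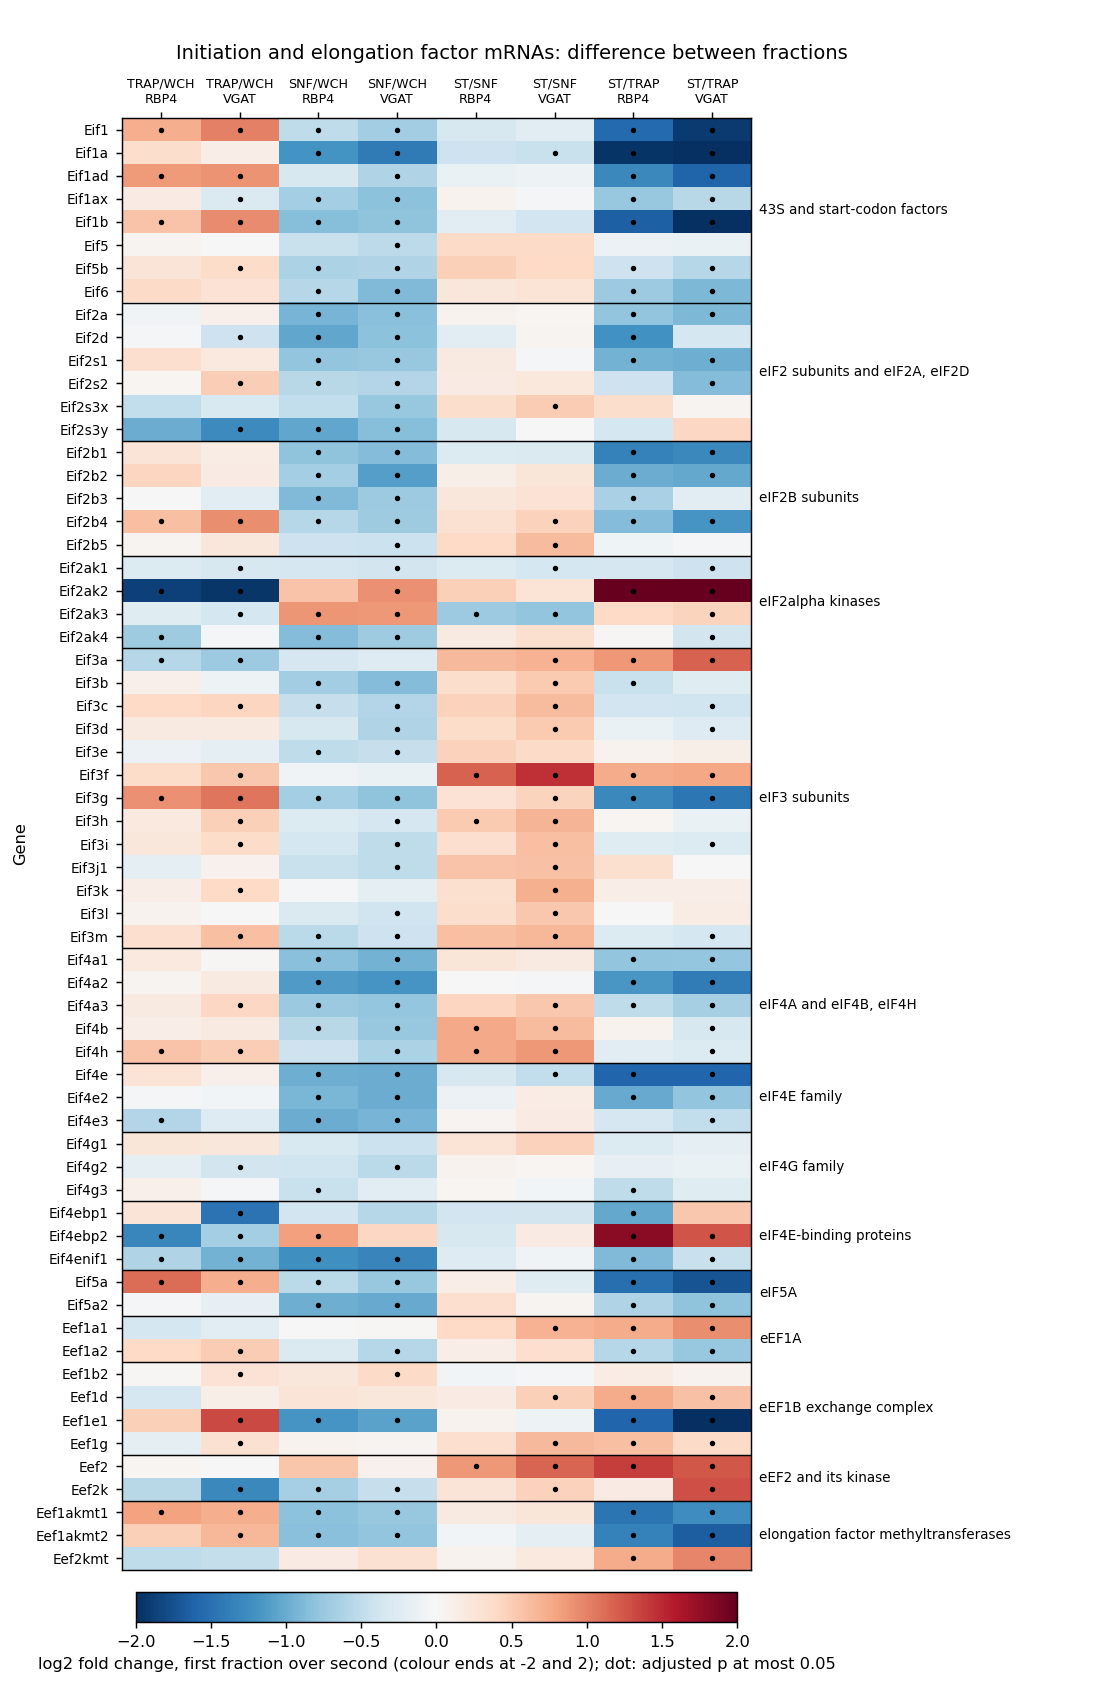
Log2 fold changes of the 63 genes in TRAP against WCH, SNF against WCH, ST against SNF and ST against TRAP for each line, grouped by role; colour gives the log2 fold change and a dot marks an adjusted p of at most 0.05. Most genes are lower in SNF than in WCH (36 in RBP4, 48 in VGAT). In the group of 43S and start-codon factors, which leaves out the eIF2 and eIF3 genes, 7 of 8 are lower in ST than in TRAP in each line.

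Of the 8 genes grouped as 43S and start-codon factors, 7 fell in each line, with medians of -1.03 in RBP4 and -1.25 in VGAT. Eif5, the GTPase activator of eIF2, was the exception at -0.11 and -0.14. Eif1b (chr9:120492606-120495327, plus strand) was at 215, 259, 216, 255 and 166 cpm in RBP4 TRAP. In RBP4 ST it was at 63.2, 57.5, 66.3, 64.3 and 108 cpm. Replicate 5 was the highest ST library and the lowest TRAP library was also replicate 5, and the groups did not overlap, as for 24 of the 63 genes in RBP4 and 27 in VGAT (19.4% and 26.9% of all genes). In VGAT Eif1b was at 326, 310.4, 259, 295 and 209 cpm in TRAP and at 57.5, 63.7, 77.8, 63.3 and 59.1 cpm in ST. It fell by 1.63 in RBP4 and 2.12 in VGAT (adjusted p = 7.32e-07 and 1.50e-10). Eif1a, a form of the eIF1A that works beside eIF1 on the small subunit, fell by 1.96 and 2.0, and Eif1 by 1.55 and 1.91 (for Eif1, adjusted p = 1.31e-07 and 2.10e-10). Eif1, Eif1b and Eif1ad, a relative of eIF1A, were among the genes higher in TRAP than in WCH, and these comparisons share the TRAP libraries.

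Of the other genes of the 43S group, Eif1ad fell by 1.29 and 1.60. Eif6, which keeps the ribosomal subunits apart, fell by 0.73 in RBP4 and 0.89 in VGAT, Eif5b, which joins the subunits, by 0.41 and 0.58, and the X-linked Eif1ax by 0.76 and 0.55. Of the eIF2 genes, the alpha subunit Eif2s1, the target of the eIF2alpha kinases, fell by 0.95 in RBP4 and 0.98 in VGAT (adjusted p = 0.000153 and 4.52e-06), and Eif2a, a factor apart from the eIF2 complex, by 0.79 and 0.89. The beta subunit Eif2s2 fell in VGAT by 0.86 and was at -0.42 in RBP4 (adjusted p = 0.0666), while the gamma genes Eif2s3x and Eif2s3y were called in neither line, at 0.35 and -0.36 in RBP4 and 0.06 and 0.42 in VGAT.

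Of the eIF4F factors, Eif4e (chr3:138526191-138557599, plus strand) was at 212, 222, 177, 175 and 149 cpm in RBP4 TRAP. In RBP4 ST it was at 68.1, 63.1, 49.7, 41.2 and 88.3 cpm. No ST library reached a TRAP library, and Eif4e fell by 1.59 in RBP4 and 1.58 in VGAT (adjusted p = 4.28e-07 and 1.59e-08). Eif4a2 (chr16:23107444-23114136, plus strand) was at 771, 769.9, 651, 703 and 828 cpm in VGAT TRAP. The VGAT ST libraries held 274, 269.7, 184, 372 and 313 cpm. Every ST library was lower than every TRAP library, and Eif4a2 fell by 1.4 in VGAT and 1.17 in RBP4 (adjusted p = 1.56e-07 and 0.00011). Its paralog Eif4a1 fell by 0.80 in RBP4 and 0.78 in VGAT, and Eif4a3, which sits in the exon junction complex, by 0.51 and 0.66. Of the 3 scaffolds, Eif4g3 fell in RBP4, by 0.50 (adjusted p = 0.00847), while Eif4g1 and Eif4g2 were at -0.27 and -0.16 in RBP4 and -0.20 and -0.13 in VGAT, none of them called.

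**Figure D3:**
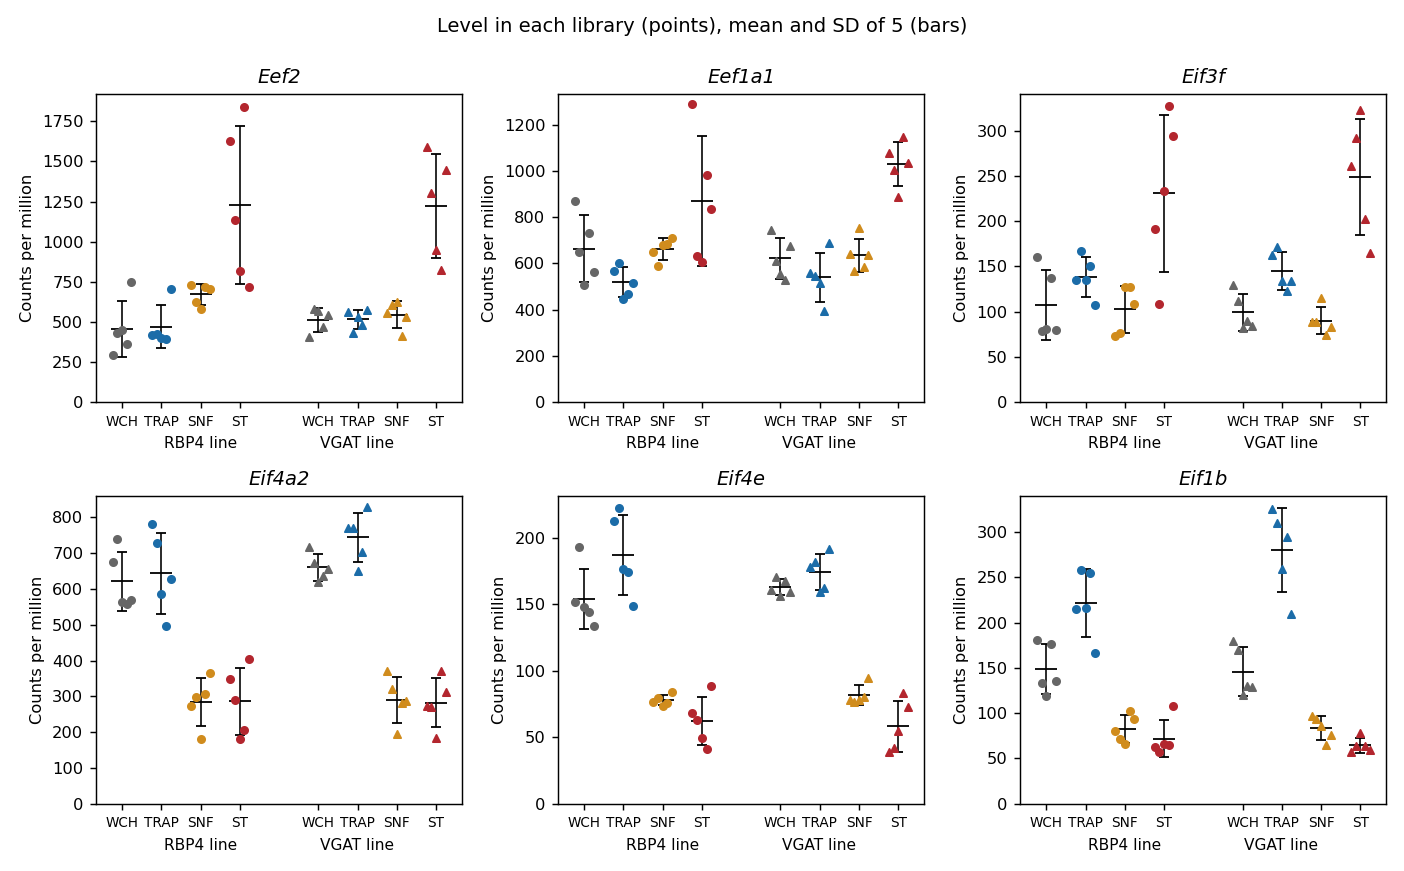
Level (cpm) of Eef2, Eef1a1, Eif3f, Eif4a2, Eif4e and Eif1b in every library, by fraction and line, with points for libraries and bars for the group mean and SD. Eef2 was highest in ST (719 to 1842 cpm in RBP4, 824 to 1593 in VGAT), and Eif1b lowest in ST in each line (57.5 to 108 and 57.5 to 77.8 cpm).

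Among the elongation factors, Eef2 was at 419, 425, 402, 393 and 708 cpm in RBP4 TRAP and 564, 429, 528, 482 and 574 cpm in VGAT TRAP, against the ST levels given above. In both lines every ST library was above every TRAP library. In RBP4 TRAP the highest was replicate 5, at 708 cpm, and the lowest ST library, also replicate 5, was at 719 cpm. The log2 fold change of ST against TRAP was 1.39 ± 0.27 (SE, adjusted p = 0.000144) in RBP4 and 1.25 ± 0.17 (SE, adjusted p = 1.13e-06) in VGAT, and without RBP4 replicate 5 it was 1.73 (adjusted p = 2.70e-06).

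The 2 forms of eEF1A moved in opposite directions. Eef1a1 (chr9:78478449-78489151, minus strand), the form of most tissues, was at 556, 544, 514, 392 and 687 cpm in VGAT TRAP. In VGAT ST it was at 1076, 1002, 888, 1147 and 1033 cpm, above every TRAP library. Its log2 fold change was 0.93 ± 0.14 (SE, adjusted p = 4.54e-06) in VGAT and 0.74 ± 0.20 (SE, adjusted p = 0.00332) in RBP4. Eef1a2, the form of mature neurons and muscle, was at 90.2, 80.7, 73.1, 87.8 and 72.2 cpm in VGAT TRAP. It was at 53.9, 55.2, 42.9, 43.7 and 44.1 cpm in VGAT ST, below every TRAP library. Its log2 fold change was -0.75 ± 0.13 (SE, adjusted p = 3.37e-05) in VGAT and -0.57 ± 0.20 (SE, adjusted p = 0.0183) in RBP4. Of the eEF1B subunits, Eef1d and Eef1g rose in both lines (log2 fold changes of 0.74 and 0.61 in RBP4, and 0.59 and 0.38 in VGAT), and Eef1b2 was at 0.16 and 0.07, not called. Eef1e1, of the multisynthetase complex, fell by 1.58 and 2.47.

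The eIF3 subunits parted. Eif3a rose by 0.87 in RBP4 and 1.17 in VGAT, and Eif3f by 0.74 and 0.78 (adjusted p = 0.00164, 1.85e-06, 0.021 and 0.000412). Eif3g fell by 1.30 and 1.45, and with it fell Eif3b in RBP4 and Eif3c, Eif3d, Eif3i and Eif3m in VGAT. The other subunits were not called and lay between -0.39 and 0.33 in RBP4 and between -0.24 and 0.15 in VGAT. Eif5a fell from 223 ± 40.2 to 78.3 ± 16.1 cpm (mean ± SD, n = 5) in RBP4 and from 186 ± 25.2 to 56.4 ± 19.7 cpm in VGAT. Its neural relative Eif5a2 fell by 0.60 and 0.80. Of the 5 eIF2B subunits, which set the supply of active eIF2, Eif2b1, Eif2b2 and Eif2b4 fell in both lines, by 0.86 to 1.35, Eif2b3 fell in RBP4, and the catalytic Eif2b5 was at -0.08 and -0.04. The 3 enzymes that methylate elongation factors parted too: Eef1akmt1 and Eef1akmt2 fell, by 1.45 and 1.35 in RBP4 and by 1.25 and 1.64 in VGAT, and Eef2kmt rose by 0.75 and 0.98, with 23.2% of its exon length shared with another gene.

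Of the 4 eIF2alpha kinases, 1 rose in RBP4, and 2 rose and 2 fell in VGAT. Of the 3 eIF4E-binding proteins, Eif4ebp2 rose in both lines, Eif4ebp1 and Eif4enif1 fell in RBP4, by 1.03 and 0.88, and Eif4enif1 fell in VGAT, by 0.45. Eif2ak2 (chr17:78852564-78882573, minus strand) was at 0.319, 0.832, 3.25, 0.846 and 0.923 cpm in VGAT TRAP. In VGAT ST it was at 11.9, 11.4, 13.5, 8.40 and 8.16 cpm, above every TRAP library. In RBP4 ST it was at 9.72, 9.22, 18.3, 16.03 and 6.83 cpm, again above every TRAP library. The log2 fold change was 2.90 ± 0.40 (SE, adjusted p = 3.21e-06) in RBP4 and 3.12 ± 0.41 (SE, adjusted p = 7.46e-07) in VGAT, and its TRAP levels rest on few counts. Within TRAP its highest level in each line was in the library with the most oligodendrocyte markers (3.75 cpm in RBP4 replicate 5 and 3.25 cpm in VGAT replicate 3), and the part of other cells in the rise was not tested. Without those pools the log2 fold change was 3.62 (adjusted p = 6.08e-08) in RBP4 and 3.74 (adjusted p = 7.92e-10) in VGAT.

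Eif4ebp2 was at 4.59, 3.71, 6.38, 3.82 and 4.48 cpm in RBP4 TRAP. In RBP4 ST it was at 13.2, 9.13, 27.3, 21.1 and 9.83 cpm, and every ST library was above every TRAP library. Its log2 fold change was 1.81 ± 0.30 (SE, adjusted p = 2.88e-05) in RBP4 and 1.26 ± 0.24 (SE, adjusted p = 7.87e-05) in VGAT. Of the other eIF2alpha kinases, Eif2ak3 rose in VGAT by 0.44 (adjusted p = 0.0106) and was at 0.39 in RBP4 (adjusted p = 0.113). The heme-regulated Eif2ak1 and the amino acid sensor Eif2ak4 fell in VGAT, by 0.41 and 0.37, and were at -0.34 and 0.02 in RBP4.

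Across the 63 genes, Pearson's r between the log2 fold changes of RBP4 and VGAT was 0.921 for ST against TRAP, 0.907 for ST against SNF, 0.936 for SNF against WCH and 0.808 for TRAP against WCH (Spearman's rho 0.897, 0.886, 0.914 and 0.821, n = 63 genes, which are not replicates). No gene was called in opposite directions in the 2 lines in any of these 4 comparisons. In ST against TRAP, 34 genes were called in both lines, 17 in 1 line and 12 in neither.

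**Figure D4:**
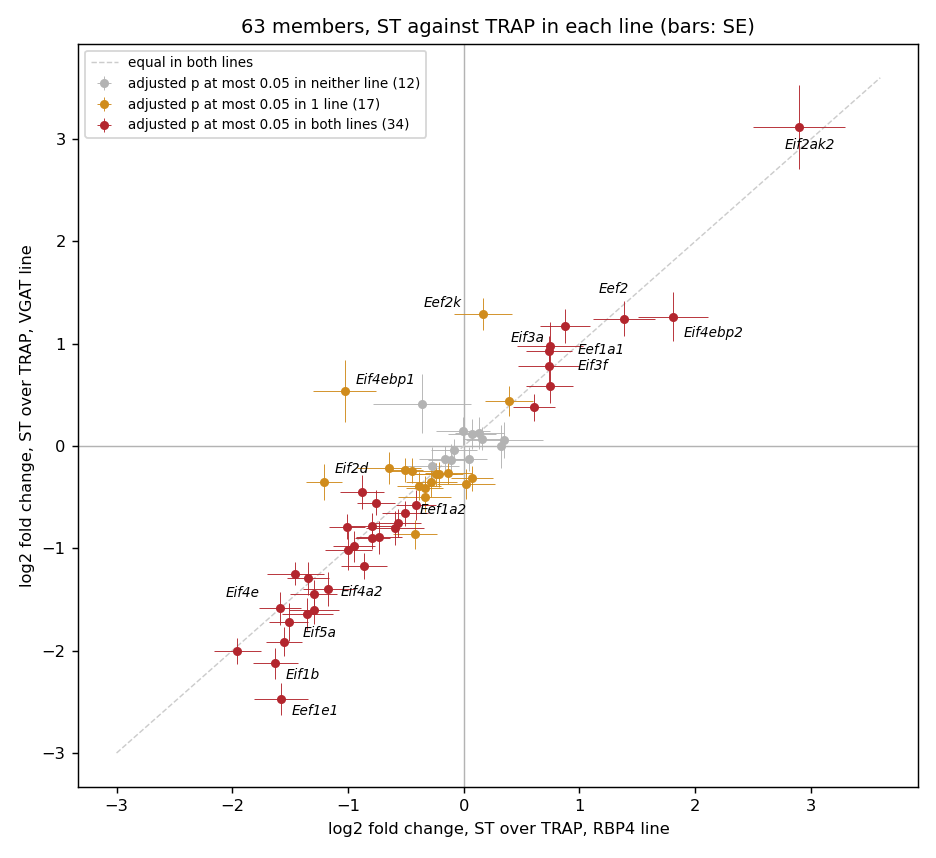
Log2 fold change of ST against TRAP in RBP4 (x axis) against VGAT (y axis) for the 63 genes; colours mark genes called in both lines (34), in 1 line (17) or in neither (12). Eif2ak2, Eef2, Eif4ebp2 and Eef1a1 lie high in both lines, and Eif1a, Eif1b, Eif1 and Eef1e1 low in both.

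Between the lines, WCH and ST showed no factor past the threshold. In WCH, edgeR called 0 of 63 in each direction (0.00592% of all genes in each direction), 2 had an unadjusted p under 0.05, and DESeq2 called none. Eef2k and Eif2ak2 had all 5 RBP4 WCH libraries above all 5 of VGAT (35.4 to 56.4 against 28.3 to 33.8 cpm, and 4.92 to 7.22 against 4.50 to 4.84 cpm), as had 0.793% of all genes. In ST, edgeR called 0 (0.0592% higher and 0.266% lower over all genes), 1 of the 63, Eef1g (named after its values were seen), lay without overlap below VGAT (1.22% of all genes), 6 had an unadjusted p under 0.05, and DESeq2 called none. In TRAP 5 genes were higher in RBP4 and 6 in VGAT, where 12.9% and 15.1% of all genes were. These groups come from different mice, and the line and the pools cannot be told apart from any difference in preparation.

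The genes higher in RBP4 TRAP were Eif4ebp1, Eef2k, Eif2s3y, Eif2b3 and Eif2d. Eif4ebp1 (chr8:27260327-27275656, plus strand), which codes for 4E-BP1, was at 2.15, 3.47, 3.22, 3.32 and 4.15 cpm in RBP4 TRAP. In VGAT TRAP it was at 0.510, 0.535, 1.15, 1.27 and 1.41 cpm. The groups did not overlap, with RBP4 above for 4 of the 63 genes and 9.58% of all genes and below for 4 and 13.2%, the log2 fold change was 1.72 ± 0.27 (SE, adjusted p = 8.38e-06), and in WCH it was -0.02. Eef2k (chr7:120842831-120907219, plus strand), the kinase that stops eEF2, was at 27.4, 16.5, 24.4, 27.8 and 43.5 cpm in RBP4 TRAP. In VGAT TRAP it was at 11.5, 9.15, 16.7, 12.05 and 14.3 cpm. The lowest RBP4 library, replicate 2, lay just below the highest of VGAT, and the other 4 were above all 5 of VGAT. Its log2 fold change was 1.13 ± 0.21 (SE, adjusted p = 0.00013) and, without RBP4 replicate 5, 0.92 (adjusted p = 0.000272). Eif2s3y, a copy of the eIF2 gamma gene on the Y chromosome, was higher by 1.43 ± 0.38 (SE, adjusted p = 0.00414), with a difference of 1.16 in WCH that did not pass (adjusted p = 1), and the pools held both sexes in numbers that the labels do not give.

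The genes higher in VGAT TRAP were Eef1e1, Eef1g, Eif4ebp2, Eif2ak4, Eif2s2 and Eif1. Eef1e1 (chr13:38645698-38659028, minus strand) was at 171, 165, 145, 197 and 154 cpm in VGAT TRAP. In RBP4 TRAP it was at 84.2, 102, 81.6, 92.9 and 51.5 cpm, below every VGAT library. The log2 fold change of RBP4 against VGAT was -1.01 ± 0.22 (SE, adjusted p = 0.000584). It was -0.73 ± 0.16 (SE, adjusted p = 0.000613) for Eef1g, the gamma subunit of eEF1B, and -0.88 ± 0.26 (SE, adjusted p = 0.00947) for Eif4ebp2. For Eif1 it was -0.37 (adjusted p = 0.0436), and the call was lost with TMM scaling (adjusted p = 0.0937) and with the replicate number, which here joins pools of different mice, as a block (adjusted p = 0.0535). In TRAP the lines differed in opposite directions for the 4E-BPs, Eif4ebp1 higher in RBP4 and Eif4ebp2 higher in VGAT.

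The change from TRAP to ST differed between the lines for 3 genes, all with a lower change in RBP4, where 5.02% of all genes had a higher and 5.79% a lower change in RBP4. In the same comparison all 4 GABAergic markers had a higher change in RBP4, with a median of 3.96, and 3 of the 4 layer 5 markers a lower one, with a median of -2.43, and their part in these results was not tested. The difference of the log2 fold changes, RBP4 less VGAT, was -1.57 ± 0.38 (SE, adjusted p = 0.00512) for Eif4ebp1, -0.86 ± 0.22 (SE, adjusted p = 0.00733) for Eif2d and -1.12 ± 0.30 (SE, adjusted p = 0.0115) for Eef2k. In ST, Eif4ebp1 was at 1.61, 1.27, 1.49, 1.99 and 1.63 cpm in RBP4. In VGAT ST it was at 1.44, 1.98, 1.27, 1.12 and 1.30 cpm. The ST levels of the lines overlapped, and it was lower in ST than in TRAP in RBP4 (-1.03, adjusted p = 0.00275), while in VGAT the change was 0.54 (adjusted p = 0.119).

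For Eef2k, the ST libraries were at 27.6, 21.3, 26.6, 38.3 and 43.04 cpm in RBP4. In VGAT they were at 34.9, 37.7, 32.02, 22.1 and 29.2 cpm. These levels overlapped, and the change from TRAP was 1.29 ± 0.15 (SE, adjusted p = 1.61e-07) in VGAT and 0.17 ± 0.25 (SE, adjusted p = 0.597) in RBP4. Eif2d, which can bring tRNAs to the ribosome without eIF2, was at 32.4, 34.5, 35.03, 32.1 and 31.5 cpm in RBP4 TRAP. In RBP4 ST it was at 17.1, 13.5, 13.6, 13.5 and 14.03 cpm, below every TRAP library. In VGAT it was at 23.1 to 25.6 cpm in TRAP and 11.9 to 27.9 cpm in ST, with overlap. Leaving out a pool at a time gave an adjusted p of 0.00576 to 0.0679 for Eef2k, 0.00196 to 0.034 for Eif2d and 0.00447 to 0.042 for Eif4ebp1. The 3 genes also differed between the lines in TRAP, and the comparisons share those libraries.

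**Figure D5:**
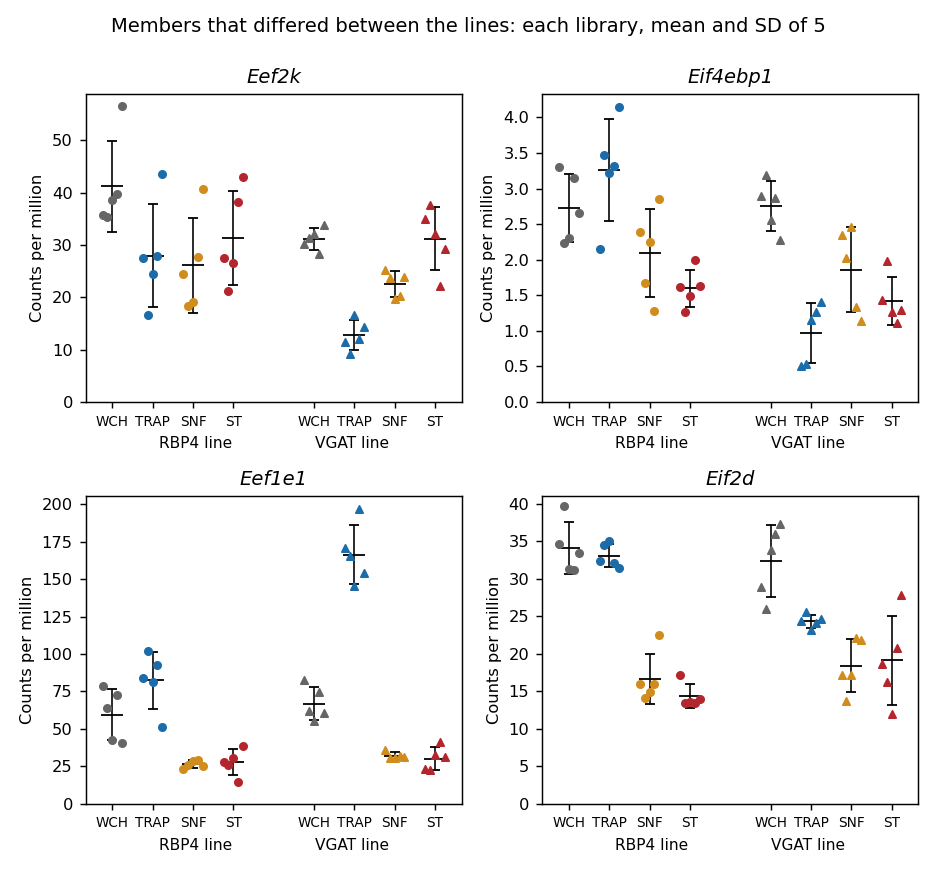
Level (cpm) of Eef2k, Eif4ebp1, Eef1e1 and Eif2d in every library, by fraction and line, with points for libraries and bars for the group mean and SD. In TRAP the lines do not overlap for Eif4ebp1, Eef1e1 and Eif2d, and in ST they overlap for these 3 genes and for Eef2k.

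Of 45 other tested genes of the pathway, in lists of helicases and ABC factors, eIF2alpha phosphatases and stress targets, hypusine and diphthamide enzymes, mTORC1 and MNK signalling, termination and recycling, and poly(A)-binding proteins, 8 were higher and 24 lower in ST than in TRAP in RBP4 (26.0% and 29.1% of all genes), and 10 and 28 in VGAT (37.5% and 34.0%). Of the 8 termination and recycling genes, 7 fell in RBP4 and 8 in VGAT, with medians of -1.03 and -1.30. The genes with the smallest p were Denr, a recycling factor, which fell by 1.51 in RBP4 (adjusted p = 3.53e-06), and Atf4, the stress transcription factor that eIF2alpha phosphorylation induces, which fell by 2.03 in VGAT (adjusted p = 3.72e-11). On the higher side they were Mknk2, a kinase of eIF4E, with a log2 fold change of 1.29 ± 0.20 in RBP4 (SE, adjusted p = 1.19e-05), and Pabpc1, the main cytosolic poly(A)-binding protein, with 1.60 ± 0.15 in VGAT (SE, adjusted p = 4.24e-09). In SNF against WCH 1 of the 45 was higher and 28 lower in RBP4 (13.4% and 36.1% of all genes), and 1 and 35 in VGAT (19.3% and 45.2%), by the library size scaling under which most of the 63 factors fell too. The gene higher in both was Ppp1r15b, which brings a phosphatase to eIF2alpha, and in ST against SNF it fell by 0.52 in RBP4 and 0.79 in VGAT, where Eif2ak3 fell too. In ST against SNF 4 were higher and 1 lower in RBP4 (5.64% and 5.46% of all genes), and 14 and 1 in VGAT (16.3% and 11.2%).

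The study took RNAs higher in SNF than in WCH and higher in ST than in SNF as candidates for local translation. With library size scaling and the adjusted threshold in each comparison, edgeR gave 0 of the 63 genes as such a candidate in either line. Over all genes it gave 32 in RBP4 (0.188%) and 134 in VGAT (0.789%), fewer than the study listed in each line. At an unadjusted p of at most 0.05 there was Eef2 in RBP4 (0.417% of all genes) and 0 in VGAT (1.29%). With TMM scaling Eef2 was called higher in SNF than in WCH in both lines, and Eef1a1 in VGAT. With library size scaling Eef2 rose from SNF to ST in both lines, and Eef1a1 in VGAT. No candidates are given here for TMM scaling, so the 0 of the 63 genes holds for library size scaling only. Of RNAs that TRAP enriched and SNF depleted against WCH, the study's candidates for translation in the cell body, there were 6 in RBP4 (3.85% of all genes) and 18 in VGAT (2035 of 16990 genes) at the adjusted threshold. Eif1, Eif1b, Eif3g, Eif2b4, Eif5a and Eef1akmt1 were among them in both lines. These candidates rest on the libraries of the comparisons above.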

How the data were processed

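RNA was measured in 40 libraries of 2 mouse lines, 4 fractions and 5 pools each, made with the SMARTer Ultra Low kit and read as single 50-base reads. The authors aligned reads with STAR 2.0.4b and counted uniquely aligned, unambiguous reads per gene with featureCounts of Subread 1.4.5, without strand. The deposited files give counts, CPM and RPKM for each gene and library, and the CPM and RPKM are the authors' values scaled by each library's total. The counts were tested. The deposited CPM was not used, since it includes mitochondrial RNA (0.0584% to 41.9% of counts), and the RPKM was used only to compare levels between genes.

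Left out were 390 mitochondrial, rRNA and tRNA genes, as in the study, and cpm was recomputed on the remaining totals. Genes with 0.5 cpm in at least 3 libraries of a fit were tested with edgeR 4.0.16's quasi-likelihood test (R 4.3.3) with group as the only term and no further scaling factor, in 1 fit of 20 libraries per line and 1 of WCH, TRAP and ST over both lines. P-values were adjusted by Benjamini-Hochberg over all tested genes (17043, 16990 and 16898), and an adjusted p of at most 0.05 is a call. Fold changes are log2, with an SE taken from the F statistic. In simulated data with 4-fold changes on the genes of the RBP4 TRAP and WCH libraries, 195 of 200 changed genes of 16914 were recovered, with 9 false calls. All 63 genes passed the filter in each fit. No library was a copy of another by a chi-square test of counts (smallest chi-square per degree of freedom 8.42).

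The 4 libraries of a replicate come from 1 pool, as the study describes. Deviations from the group means of the same pool correlated with a mean r of 0.212 in RBP4 and 0.245 in VGAT, and those of different pools with -0.053 and -0.061, so a fit with the pool as a block was also made. Other alternatives were TMM, DESeq2 1.42.0 and its size factors, the likelihood ratio test, no filter, no genes left out, and leaving out each pool. Genes were named by role (34 genes), by the 3 smallest p-values in each direction of a comparison and by the ends of each role group, and 15 genes have their library values in the text. Start windows came from RefSeq GRCm38.p6, and coordinates from the deposited files, which overlap the GRCm38 genes of GENCODE M21 for 40158 of 40254 genes. The genes, the lists and the tests were chosen with earlier results of these data known.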

Additional observations from a re-analysis of the deposited data

Results flagged for a closer look

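Of 128 sets of 5 libraries tested with Dixon's rule (the 15 genes whose library values are given and the summed level of the 63, in 8 groups), 14 had a library that stood apart from the other 4, where chance flags about 1 in 20. For the eIF2alpha kinase PKR, Eif2ak2 was at 3.25 cpm in VGAT TRAP replicate 3 (0.319 to 0.923 in the others) and at 18.9 cpm in VGAT SNF replicate 3 (5.07 to 7.91). Eif4ebp2 stood apart in the SNF of replicate 3 in both lines, at 36.1 cpm in RBP4 (13.9 to 18.3) and 32.1 cpm in VGAT (12.8 to 16.9), and in VGAT WCH replicate 1 at 19.2 cpm (10.9 to 12.7). Eif2ak3 was at 16.9 cpm in VGAT ST replicate 3 (21.9 to 23.2).

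Among the elongation factors, Eef2 was at 708 cpm in RBP4 TRAP replicate 5 (393 to 425 in the others), Eef2k at 56.4 cpm in RBP4 WCH replicate 5 (35.4 to 39.7), and Eef1e1 at 36.0 cpm in VGAT SNF replicate 1 (30.4 to 31.8). Among the initiation factors, Eif1b was at 108 cpm in RBP4 ST replicate 5 (57.5 to 66.3), Eif2d at 22.5 cpm in RBP4 SNF replicate 5 (14.1 to 15.99) and at 17.1 cpm in RBP4 ST replicate 1 (13.5 to 14.03), Eif5a at 230.1 cpm in VGAT TRAP replicate 1 (168 to 183), and Eif4e at 94.7 cpm in VGAT SNF replicate 5 (76.5 to 80.4).

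The change from TRAP to ST differed between the lines by the test of the difference itself for Eif4ebp1 (-1.57, RBP4 less VGAT on the log2 scale), Eef2k (-1.12) and Eif2d (-0.86).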

How the results depend on the processing

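The counts of called factors in ST against TRAP stayed within 1.5 times under every alternative run, and of 99 values of named genes (1289 checks over the alternatives) none changed direction and 114 checks no longer passed. Outside these, 6 VGAT falls in SNF against WCH changed sign under size factors. The scaling moved the comparisons with WCH: for TRAP against WCH in RBP4, TMM gave 26 higher and 2 lower, size factors 25 and 2, DESeq2 29 and 2, and no genes left out 2 lower; in VGAT, TMM, size factors and DESeq2 gave 6 lower each. For SNF against WCH in RBP4, TMM gave 5 higher and 11 lower, size factors 7 and 8, DESeq2 8 and 10, and no genes left out 1 higher; in VGAT, TMM gave 9 and 27, size factors 9 and 17, DESeq2 10 and 19, and no genes left out 1 higher. For ST against SNF in RBP4, DESeq2 gave 9 higher, no genes left out 14 higher and 0 lower, and without RBP4 ST replicate 4 there were 2 higher and 0 lower; in VGAT DESeq2 gave 7 lower and no genes left out 1. With no filter, TRAP showed 3 factors lower in RBP4 than in VGAT. For the change from TRAP to ST between lines, size factors, DESeq2, the likelihood ratio test and leaving out RBP4 ST replicate 4 each gave 1 higher. Of all 17043 genes tested in RBP4, TRAP against WCH had 3296 higher and 3815 lower with TMM. It had 3300 and 3877 with size factors, and 3536 and 4159 with DESeq2. SNF against WCH in RBP4 had 3284 and 3048, 3546 and 2158, and 3781 and 2545 by these scalings. Of all 16990 genes in VGAT it had 4187 and 4747, 4501 and 3784, and 4572 and 3929. TRAP against WCH in VGAT had 5530, 5672 and 5796 lower. The scalings differ in the median of all genes they set, and beyond that the cause was not tested.

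With the replicate block, which pairs the libraries of a pool, ST against SNF in RBP4 had 9 higher and 1 lower, and the other counts moved by less than 1.5 times (10 higher and 8 lower in TRAP against WCH in RBP4, 9 and 33 in ST against TRAP in RBP4, and 11 and 37 in VGAT). The pool block kept the 3 differences between lines, and Eif1 in TRAP between lines had an adjusted p of 0.0535 under a block on the replicate number, which there joins pools of different mice.

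Leaving out 1 pool at a time, the counts of higher and of lower factors ran over 4 to 8 and 2 to 8 in TRAP against WCH in RBP4, 1 to 3 and 22 to 36 in SNF against WCH in RBP4, 1 to 7 and 0 to 1 in ST against SNF in RBP4, 7 to 9 and 24 to 28 in ST against TRAP in RBP4, 18 to 22 and 6 to 10 in TRAP against WCH in VGAT, 2 to 3 and 44 to 47 in SNF against WCH in VGAT, 17 to 26 and 1 to 4 in ST against SNF in VGAT, 10 to 11 and 29 to 34 in ST against TRAP in VGAT, 4 to 6 and 3 to 6 in TRAP between lines, and 0 to 1 and 2 to 3 in the change between lines. In ST against SNF in RBP4, leaving out replicate 1, 3 or 4 gave 1, 3 and 1 higher and 0 lower. Between lines, 0 were called in WCH and in ST with any pool left out. At 0.0455 to 0.112 cpm a count, depth limits Eif2ak2 and Eif4ebp1 in TRAP most among the genes described. The labels give no batch. In both lines replicate 3 had the highest mitochondrial share of the TRAP, of the SNF and of the ST libraries, and the part of this was not tested. The ST libraries carry glial and endothelial RNA, whose part was not tested.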

Other observations

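Between the lines in TRAP, 3 of the 5 genes of eIF2alpha phosphatases and stress targets were lower in RBP4 than in VGAT, with a list median of -0.77 on the log2 scale, and of all 45 pathway genes 3 were higher and 5 lower, where 12.9% and 15.1% of all genes were. Paip2, which keeps poly(A)-binding protein off the mRNA, was lower in RBP4 TRAP, with a log2 fold change of -1.14, and its fall from TRAP to ST was larger in VGAT (2.02) than in RBP4 (0.95), a difference of 1.07 ± 0.23 (SE, adjusted p = 0.00205). Atf4, named after its values were seen, fell by 2.03 in VGAT and 1.05 in RBP4 from TRAP to ST, a difference of 0.98 ± 0.26 (SE, adjusted p = 0.0124). In ST between the lines, edgeR called 0 of the 45 pathway genes, as it called 0 of the 63 factors.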
